A study of Mus musculus with 6 samples.

Results

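The 10 genes described here encode both main 4E-BP translation repressors (Eif4ebp1, Eif4ebp2), the cap-binding factors they act on (Eif4e, Eif4g1, Eif4a1), and the kinase mTORC1 with its inhibitors and a substrate (Mtor, Rptor, Akt1s1, Deptor, Rps6kb1). They are 10 of the 57508 genes in the deposited tables and were chosen by name, with the difference between the groups in these libraries already known. Their differences between groups are therefore descriptions: whether a gene passed the threshold of the fit over all genes is stated, but no p-value is given and nothing is concluded from it. RNA was sequenced from KPC1199, a mouse cell line labelled as pancreatic tumour cells, in 3 ACSL5 knockdown libraries and 3 WT libraries. Library names in both groups begin with siACSL5. Those of the WT libraries add CY3, and those of all 3 knockdown libraries add the same number, and no label explains either term. Effects of what that shared number stands for and of the lower Acsl5 level cannot be told apart. The titles call the knockdown libraries KO, and no label states whether the libraries of a group came from separate cultures. The stated aim of the series was to learn what ACSL5 does in the progression of pancreatic ductal adenocarcinoma.

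Translation of most messenger RNAs starts when eIF4E binds the 5' cap and recruits the scaffold eIF4G and the RNA helicase eIF4A, which together form eIF4F. The 4E-BPs are small proteins that occupy the eIF4G-binding face of eIF4E and so block this step. The kinase complex mTORC1 phosphorylates the 4E-BPs, which releases eIF4E, and phosphorylates the S6 kinases. Its activity depends on growth factors, amino acids and energy, and it lies downstream of PI3K signalling. Only RNA was measured here, so neither protein nor phosphorylation can be read from these values.

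Libraries held between 21794244 and 29996194 expected counts. Levels are given as CPM, the counts of a gene relative to the library's total after TMM scaling, or as the deposited TPM, which also corrects for transcript length. Acsl5, the targeted gene, was at 49.8, 55.6 and 57.2 CPM in knockdown replicates 1, 2 and 3, against 342.4, 265.2 and 270.2 CPM in WT replicates 1, 2 and 3. The knockdown libraries thus held 18.5% of the WT mean, and the groups did not overlap (two-sided exact permutation p = 0.1, the smallest that 3 against 3 libraries allow). All 7 epithelial markers averaged above 1 TPM, and their summed level was 7890 to 8636 TPM in knockdown and 8539 to 9067 TPM in WT libraries. Summed fibroblast markers were at 15.9 to 17.4 TPM in knockdown and 6.84 to 27.5 TPM in WT libraries, with Pdgfra carrying most of it, Lum at 0 in every library, and 2 of 5 markers averaging above 1 TPM. Summed leukocyte markers were at 7.16 to 8.49 TPM in knockdown and 3.55 to 6.53 TPM in WT libraries, nearly all of it Cd68, with Adgre1 and Tyrobp at 0 and 1 of 5 markers averaging above 1 TPM. Endothelial markers summed to at most 0.12 TPM in knockdown and 0.11 TPM in WT libraries, and acinar and islet markers to 1.88 to 3.06 TPM in knockdown and 2.77 to 6.23 TPM in WT libraries. Of these, 0 of 4 endothelial and 1 of 6 acinar and islet markers averaged above 1 TPM, with Cdh5, Tek, Ins1, Ins2 and Gcg at 0 in every library. The part of these low signals in the results was not tested.

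WT replicate 1 stands apart from the other 5 libraries. Across genes, its correlation with them was 0.918 to 0.933, while the other 10 pairs of libraries reached 0.979 to 0.996. For the 10 genes each comparison is therefore given over all 6 libraries and again over the 5 libraries without WT replicate 1. The difference in that library followed gene length among the 10 genes. All 6 with a deposited length above 5 kb were lower in it than in WT replicates 2 and 3, by 0.19 (Rps6kb1) to 1.33 (Mtor) on the log2 CPM scale. All 4 shorter ones were higher in it, by 0.31 for Eif4a1, 0.43 for Eif4e, 1.20 for Akt1s1 and 1.71 for Eif4ebp1. The limit of 5 kb only describes these genes, and Eif4e, at 4991 bases, lies just below it, with Eif4g1 next at 5444 bases. Among all genes compared, the shortest 10% had a median of 1.28 and the longest 10% a median of -1.08 on the same scale.

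**Figure D1:**
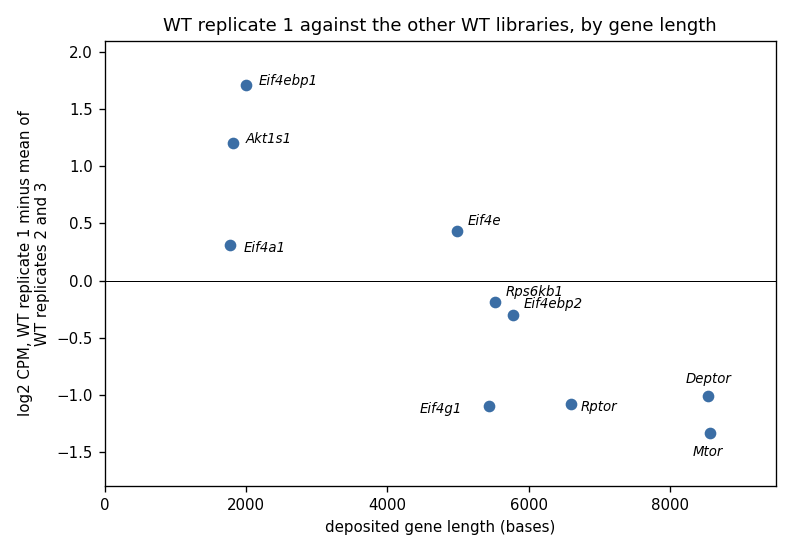
Difference in log2 CPM between WT replicate 1 and the mean of WT replicates 2 and 3 (vertical axis), against the deposited gene length in bases (horizontal axis), for the 10 genes. The 4 genes shorter than 5 kb lie above 0 and the 6 longer ones below, from 1.71 for Eif4ebp1 to -1.33 for Mtor.

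With all 6 libraries, edgeR called 0 of the 10 genes, against 0% of all 14679 genes tested. At an unadjusted p below 0.05 there were 3 of the 10 and 2351 of all genes, and DESeq2 called 2 of the 10 and 724 of all genes. Without WT replicate 1, edgeR called 4 of the 10 genes at an adjusted p below 0.05, 3 of them lower (Eif4ebp2, Eif4e, Mtor) and 1 higher (Eif4g1), against 34.3% of all 15152 genes tested, 18.0% lower and 16.3% higher. Over the 6 libraries, Eif4ebp2 and Eif4e were lower in every knockdown than in every WT library, as were 15.6% of all genes. Akt1s1 and Eif4g1 were higher in every knockdown than in every WT library, as were 18.7% of all genes. Nothing is read from these shares, since the genes were picked with the contrast known.

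**Figure D2:**
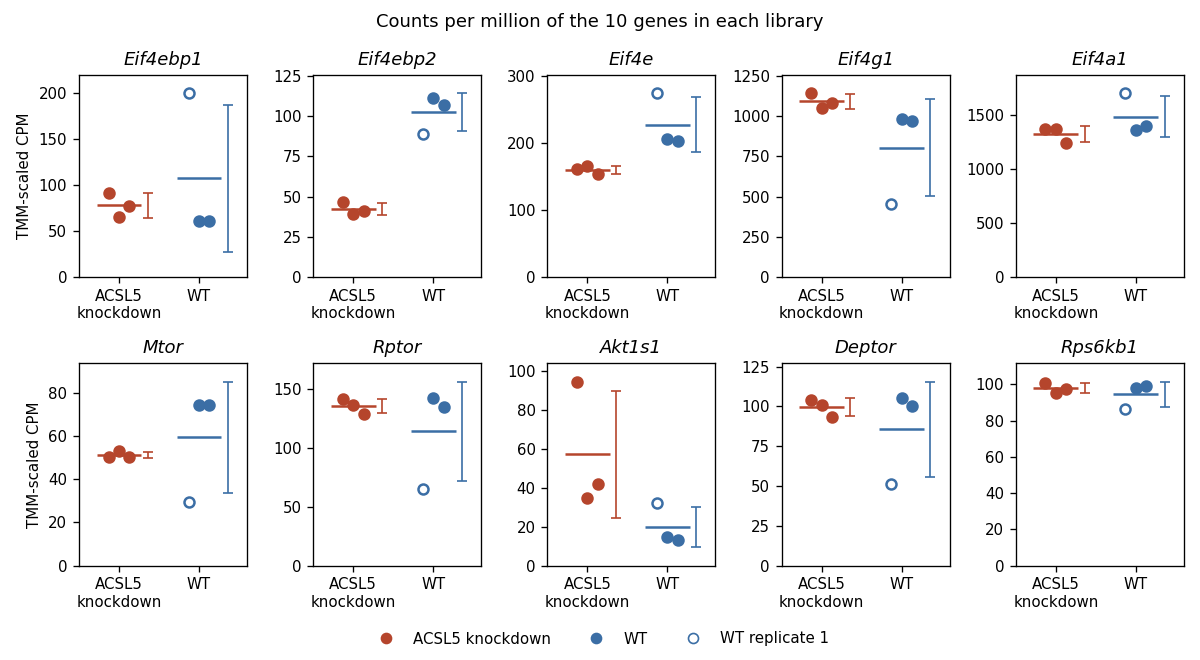
TMM-scaled CPM (vertical axes, each from 0) of the 10 genes in the ACSL5 knockdown (left, red) and WT (right, blue) libraries, with 1 point per library, the mean as a line and the SD as a bar beside it. The open circle is WT replicate 1, which lies above or below both other WT libraries for each gene. Eif4ebp2 is low in all 3 knockdown libraries, and Akt1s1 is highest in knockdown replicate 1, at 94.8 CPM.

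Eif4ebp2 encodes 4E-BP2 and had the most negative fold change of the 10 genes. It lies on chromosome 10 from 61428491 to 61452661, minus strand, in GENCODE M21 on GRCm38. It was at 46.7, 39.3 and 40.8 CPM in knockdown replicates 1, 2 and 3, against 88.7, 110.9 and 107.0 CPM in WT replicates 1, 2 and 3. All knockdown libraries lay far below all WT libraries and varied little among themselves. The means were 42.3 ± 3.91 CPM in knockdown and 102.2 ± 11.8 CPM in WT cells (SD, n = 3 each), so that 41.4% of the WT level remained. The log2 fold change, knockdown minus WT, was -1.27 (SE 0.153) over 6 libraries and -1.38 (SE 0.0678) without WT replicate 1. On the deposited TPM scale the separation rested on WT replicates 2 and 3, since the gene was at 11.9, 10.4 and 10.8 TPM in the knockdown libraries, against 12.4, 28.8 and 27.8 TPM in the WT libraries. WT replicate 1 was there just above the highest knockdown library. In RNA of whole cultures, fewer cells with a transcript and fewer copies per cell cannot be told apart. The sense intronic RNA Gm48086 overlaps the gene and stayed below 1 CPM in every library.

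Eif4ebp1 encodes 4E-BP1, the most studied 4E-BP, and its direction depended on WT replicate 1. Its levels were 91.7, 65.2 and 77.1 CPM in the knockdown libraries, against 200.1, 61.4 and 60.8 CPM in the WT libraries. WT replicate 1 was far above every other library, and each knockdown library was above WT replicates 2 and 3. In log2 terms the difference was -0.46 (SE 0.506) over 6 libraries and 0.34 (SE 0.146) without WT replicate 1. In TPM, the knockdown libraries were at 75.7, 117.7 and 124.0, against 241.1, 120.9 and 121.8 in the WT libraries, and the value without WT replicate 1 turned to -0.23 on the log2(TPM + 1) scale. The lengths by which counts had been turned into TPM differed between libraries. They were 1906, 903 and 1005 bases in knockdown replicates 1, 2 and 3 and 723, 805 and 793 bases in WT replicates 1, 2 and 3, where the annotation holds a coding transcript of 1997 bases and a shorter processed one. Knockdown replicate 1 thus had the longest estimate, close to the coding transcript, and the direction of Eif4ebp1 depended on the libraries and the unit used. In counts over 5 libraries, 5 of 17 alternative settings called it higher, while TPM gave the negative value. Eif4ebp3, the remaining family member, was at 9.43 TPM in WT replicate 1 and at 0 to 0.54 TPM in the other 5 libraries, and was not tested.

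The makeup of the 4E-BP transcripts differed between the knockdown libraries and WT replicates 2 and 3, but over all 6 libraries the groups overlapped. Of the summed TPM of Eif4ebp1 and Eif4ebp2, Eif4ebp2 made up 13.6%, 8.13% and 8.01% in knockdown replicates 1, 2 and 3, against 4.87%, 19.2% and 18.6% in WT replicates 1, 2 and 3. Each knockdown library lay below WT replicates 2 and 3 and above WT replicate 1. Both 4E-BPs together, per transcript of Eif4e, came to 0.779, 0.897 and 0.939 in the knockdown libraries, against 3.05, 0.785 and 0.787 in the WT libraries. WT replicate 1 aside, this ratio lay in a narrow band in both groups, and knockdown replicate 1 was just below both remaining WT libraries. Both measures carry the differing lengths behind TPM. For Eif4ebp1 these were 1906 bases in knockdown replicate 1 and 723 bases in WT replicate 1. For Eif4e they were 2876, 1716 and 1693 bases in WT replicates 1, 2 and 3. How far these lengths shape the ratios was not tested.

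**Figure D3:**
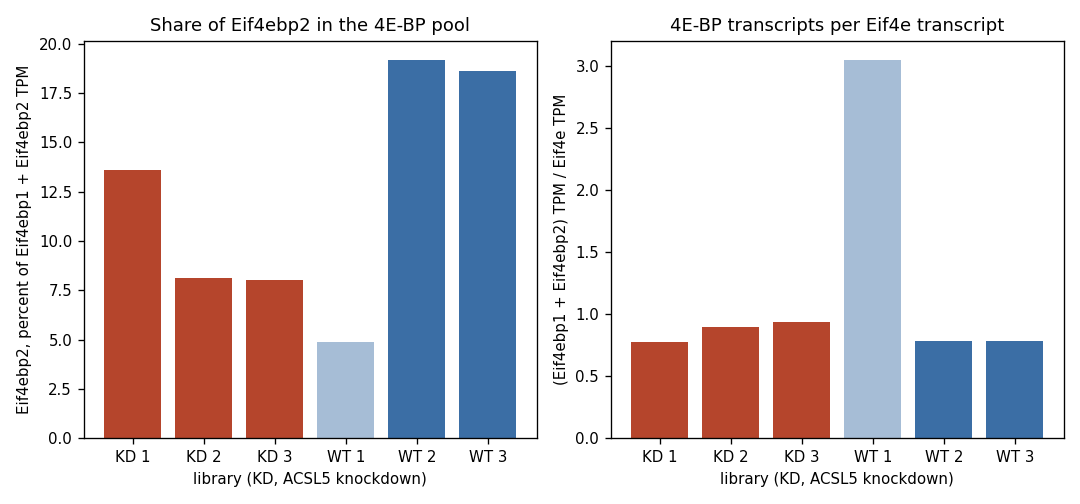
Left, Eif4ebp2 as a percentage of the summed TPM of Eif4ebp1 and Eif4ebp2. Right, that sum divided by the TPM of Eif4e. Each bar is 1 library, with ACSL5 knockdown (KD, red) left of WT (blue) and WT replicate 1 pale, which stands apart at 4.87% and 3.05.

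Eif4e, the cap-binding protein itself, was moderately lower in the knockdown libraries. It was at 162.0, 165.1 and 153.5 CPM in knockdown, against 274.3, 206.2 and 202.4 CPM in WT libraries. The groups did not overlap, and WT replicate 1 was the highest library. The difference on the log2 scale was -0.51 (SE 0.167) over 6 libraries and -0.37 (SE 0.0471) without WT replicate 1. With each library's trend in GC content removed, the value over 5 libraries was -0.22. In TPM the groups overlapped, with 112.5, 142.9 and 143.5 in knockdown and 83.1, 190.7 and 190.1 in WT libraries.

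Eif4g1 encodes the scaffold eIF4GI, which joins eIF4E to eIF4A and to the ribosome through eIF3. Its levels were 1141, 1051 and 1082 CPM in knockdown, against 454.5, 982.8 and 968.5 CPM in WT libraries. Every knockdown library was above every WT library, but the margin over WT replicates 2 and 3 was small. In log2 terms the difference was 0.44 (SE 0.315) over 6 libraries and 0.15 (SE 0.0444) without WT replicate 1, and 0.08 over these 5 libraries with the GC trend removed, where it was no longer called.

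Eif4a1 encodes the main eIF4A helicase and had the highest level per length of the 10 genes. It was at 1373, 1371 and 1243 CPM in knockdown, against 1703, 1358 and 1399 CPM in WT libraries, and the groups overlapped. Its log2 fold change was -0.16 (SE 0.17) over 6 libraries and -0.07 (SE 0.0489) without WT replicate 1. Eif4a-ps4, a processed pseudogene on chromosome 1 from 60703932 to 60705149, shares 1119 different stretches of 50 bases with the Eif4a1 transcripts. Its level was 20.5, 155.3 and 211.6 CPM in knockdown replicates 1, 2 and 3, against 769.0, 96.6 and 116.7 CPM in WT replicates 1, 2 and 3, a 10.3-fold range within the knockdown group alone. The split of reads between both genes is therefore uncertain. Summed, they came to 1393, 1526 and 1455 CPM in knockdown, against 2472, 1454 and 1516 CPM in WT libraries. The log2 ratio of these means was -0.32 with all libraries and -0.03 without WT replicate 1.

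Mtor, the catalytic subunit of mTORC1 and mTORC2, separated the groups only when WT replicate 1 was set aside. It was at 50.3, 52.9 and 50.3 CPM in knockdown, against 29.5, 74.1 and 74.4 CPM in WT libraries. The knockdown libraries agreed closely with one another and lay between WT replicate 1 and the other WT libraries. Its log2 fold change was -0.21 (SE 0.354) over 6 libraries and -0.55 (SE 0.0545) without WT replicate 1. The TPM values overlapped, with 10.4, 16.2 and 11.5 in knockdown and 6.72, 17.2 and 14.6 in WT libraries, and the log2(TPM + 1) value over 5 libraries was -0.32 and not called.

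Rptor encodes Raptor, the subunit that brings substrates such as the 4E-BPs to mTORC1, and its groups overlapped. It was at 141.2, 136.7 and 129.0 CPM in knockdown, against 65.1, 142.0 and 134.4 CPM in WT libraries. Its log2 fold change was 0.25 (SE 0.302) over 6 libraries and -0.04 (SE 0.0524) without WT replicate 1, so that the positive sign came with WT replicate 1. With the GC trend removed, its value over 5 libraries was -0.19 (SE 0.0513), which was called lower.

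Deptor, which binds and inhibits mTOR, behaved similarly. It was at 104.0, 101.2 and 93.2 CPM in knockdown, against 51.2, 105.4 and 100.5 CPM in WT libraries, with a log2 fold change of 0.21 (SE 0.285) over 6 libraries and -0.07 (SE 0.0569) without WT replicate 1. Rps6kb1, which encodes S6 kinase 1, a substrate of mTORC1, was the steadiest of the 10 genes. Its levels were 100.8, 95.2 and 97.5 CPM in knockdown, against 86.6, 98.2 and 99.1 CPM in WT libraries, with a log2 fold change of 0.05 (SE 0.126) over 6 libraries and -0.03 (SE 0.0488) without WT replicate 1. Its ends overlap Rnft1 on the opposite strand by 155 bases. Rnft1 was at 30.9, 30.9 and 29.1 CPM in knockdown, against 36.6, 44.7 and 47.9 CPM in WT libraries, and whether the counting used strand is not given in the sources used here.

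Akt1s1 encodes PRAS40, a subunit that inhibits mTORC1 until it is phosphorylated by AKT, and it had the highest fold of the 10 genes. It lies on chromosome 7 from 44848991 to 44855421, plus strand, in GENCODE M21 on GRCm38. It was at 94.8, 34.9 and 42.2 CPM in knockdown replicates 1, 2 and 3, against 31.9, 14.5 and 13.3 CPM in WT replicates 1, 2 and 3. The groups did not overlap, but 1 library in each stood well above the others, and knockdown replicate 2 was only slightly above WT replicate 1. The means were 57.3 ± 32.7 CPM in knockdown and 19.9 ± 10.4 CPM in WT cells (SD, n = 3 each). The log2 fold change was 1.53 (SE 0.52) over 6 libraries and 2.02 (SE 0.637) without WT replicate 1, and edgeR called it in neither fit, whereas 5 of 17 alternative settings over the 5 libraries did.

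Akt1s1 also varied most within the knockdown group. The coefficient of variation among the knockdown libraries was 57.0% for Akt1s1, 17.0% for Eif4ebp1 and 2.87% to 9.25% for the other 8 genes. Without WT replicate 1, leaving out knockdown replicate 1 as well gave a log2 fold change of 1.48, which was called. Knockdown replicates 2 and 3 together held 2.78 times the mean of WT replicates 2 and 3. Akt1s1 has a GC content of 60.7%, within the highest 10% of genes by GC, whose median log2 fold change was 0.29 over the same 5 libraries. Removing each library's GC trend gave 1.64 for Akt1s1. In TPM the gene was at 128.4, 38.9 and 45.2 in knockdown, against 17.9, 15.1 and 13.3 in WT libraries, with all knockdown libraries again above all WT libraries. Tbc1d17, on the opposite strand, overlaps Akt1s1 by 89 bases. Its level was 33.9, 35.4 and 36.6 CPM in knockdown, against 43.6, 29.0 and 25.8 CPM in WT libraries, without the peak of Akt1s1 in knockdown replicate 1.

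**Figure D4:**
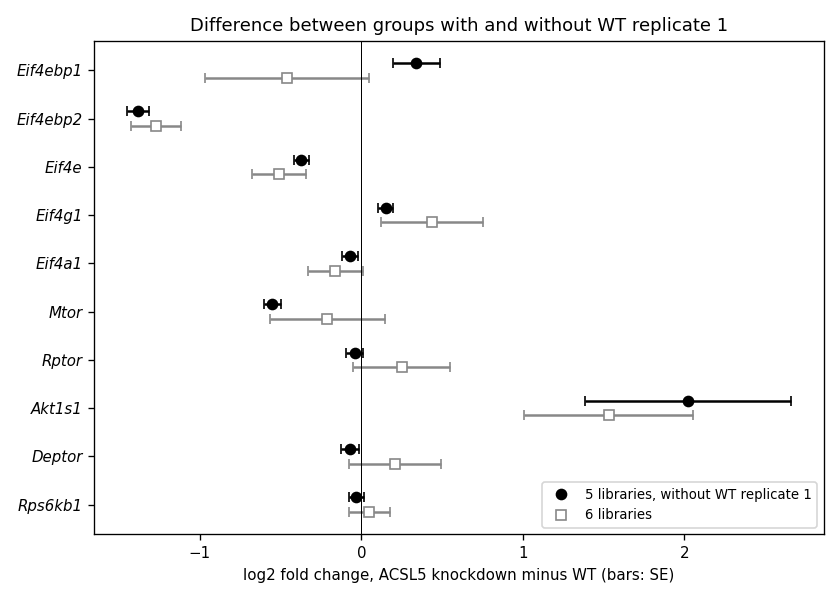
Log2 fold change in TMM-scaled counts, ACSL5 knockdown minus WT, with its SE, for the 10 genes, over 5 libraries without WT replicate 1 (filled circles) and over 6 libraries (open squares). Eif4ebp2 lies at -1.38 and -1.27 and Akt1s1 at 2.02 and 1.53, while Eif4ebp1, Rptor, Deptor and Rps6kb1 change sign between the fits.

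By TPM the order of the 10 genes shifted between the groups mainly through Eif4ebp2 and Akt1s1. In knockdown cells Eif4a1 (1351 ± 107.3 TPM) and Eif4g1 (370.5 ± 9.78 TPM) led, followed by Eif4e (133.0 ± 17.7 TPM) and Eif4ebp1 (105.8 ± 26.2 TPM), whose ranges overlap (SD, n = 3). Akt1s1 came next at 70.8 ± 49.9 TPM, a spread that covers Rps6kb1 at 47.7 ± 4.96 TPM and Rptor at 38.2 ± 3.34 TPM. The lowest were Deptor at 17.4 ± 0.697 TPM, Mtor at 12.7 ± 3.06 TPM and Eif4ebp2 at 11.0 ± 0.765 TPM, where the last pair did not differ beyond their spread. In WT cells Eif4ebp2 stood at 23.0 ± 9.21 TPM and Akt1s1 at 15.4 ± 2.34 TPM, within the spread of Deptor at 13.6 ± 7.64 TPM and Mtor at 12.9 ± 5.48 TPM. Akt1s1 transcripts per Rptor transcript, inhibitor over scaffold, came to 3.06, 1.06 and 1.26 in knockdown, against 1.80, 0.409 and 0.389 in WT libraries. Knockdown replicate 1 and WT replicate 1 were the highest of their groups, and the groups overlapped through WT replicate 1.

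The 3 genes called lower without WT replicate 1 all hold the 7 bases GAACTAC in their longest annotated 3' UTR. The Acsl5 coding sequence holds this sequence too. This sequence was picked out earlier from the fold changes of these same libraries, so its presence is a description and no independent support. The stretches of 29 bases around it are taken from GENCODE M21 transcripts on GRCm38 and run 5' to 3' on the RNA strand, with the shared 7 bases in capitals. In Acsl5, on chromosome 19, the 7 bases begin at base 788 of 2052 coding bases, and the stretch of 29 bases spans an exon junction. That of Eif4ebp2 lies at chr10:61432528-61432556 (minus strand), that of Eif4e at chr3:138556893-138556921 (plus strand) and that of Mtor at chr4:148556971-148556999 (plus strand).
Acsl5 coding sequence: tttcaccagtgGAACTACaggtgacccca
Eif4ebp2 3' UTR: agtacaattttGAACTACaacttttttaa
Eif4e 3' UTR: acaagtattaaGAACTACttatattggtc
Mtor 3' UTR: gtatatgaaaaGAACTACtgtatattcaa
The identical stretch runs over 8 bases for Eif4ebp2 and over 7 bases for Eif4e and Mtor. In Eif4e the 7 bases begin at base 1400 of a 3' UTR of 4192 bases. The lengths by which its counts had been turned into TPM were 1693 to 2876 bases, against a deposited length of 4991 bases. How much of the counted Eif4e RNA holds the 7 bases was therefore not tested.

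Of all 20676 genes with a 3' UTR of at least 50 bases, 1050 (5.08%) hold these 7 bases on the RNA strand. The longest annotated 3' UTR of each gene was used. Without WT replicate 1, 305 of 647 tested genes with the 7 bases were called lower (47.1%) and 59 higher (9.12%), with a median log2 fold change of -0.22. Among 11701 tested genes without them, 2204 were called lower (18.8%) and 2237 higher (19.1%), with a median of 0.01. Over 6 libraries 0 genes of either set were called. The medians were -0.19 for 638 genes with the 7 bases and -0.0 for 11522 without them. Since the 7 bases were picked from these same fold changes, this contrast is a description and gives no independent support. The 3' UTRs of the genes with the 7 bases were longer, with a median of 2733 bases against 1143 bases. Of the other pathway genes described next, 6 tested ones hold the 7 bases. Sesn3 (-0.67) and Eif3j1 (-0.34) were called lower, Tti2 (0.41) was called higher, and 3 were not called, among them Mknk2 (0.11) and Prkab2 (-0.20). These genes were listed after their values had been seen.

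The remaining pathway was covered by 10 lists of translation initiation and mTORC1 genes, which hold 109 genes besides the 10. With all 6 libraries edgeR called 0 of the 105 tested (8 at an unadjusted p below 0.05), and DESeq2 called 3. Without WT replicate 1, 27 of 106 were called higher and 18 lower, 42.5% against the 34.3% of all genes. Their median log2 fold change was 0.01, against -0.01 over all genes. Values below are log2 fold changes without WT replicate 1, with edgeR's quasi-likelihood test and adjusted p over all genes, unless 6 libraries are named. The lists were chosen with earlier results of these data known. The genes named are the called ones with the smallest p, with some other subunits of their complexes beside them. Their p-values are therefore descriptions too.

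Among cap-binding factors and their regulators, 4 of 13 tested genes were lower and 0 were higher. With each library's GC trend removed, 3 were lower and 1 was higher. Eif4e2, a cap-binding homolog that represses translation, was lower by the greatest amount, at 56.4 ± 5.23 CPM in knockdown and 123.5 ± 34.3 CPM in WT cells (SD, n = 3 each). Without WT replicate 1, the WT mean was 103.8 ± 6.10 CPM (SD, n = 2) and the log2 difference -0.90 (SE 0.0815, adjusted p = 0.000104). Eif4g3, which encodes the scaffold paralog eIF4GII, was at 49.2 ± 0.199 CPM in knockdown and 62.8 ± 16.9 CPM in WT cells (SD, n = 3 each). Its groups overlapped, since WT replicate 1, at 43.5 CPM, was below every knockdown library. Without WT replicate 1, the WT mean was 72.5 ± 3.34 CPM (SD, n = 2) and the log2 difference -0.58 (SE 0.0548, adjusted p = 4.3e-05). Over all 6 libraries Eif4e2 and Eif4g3 had a negative value, at -1.13 and -0.35. Eif4g3 and its paralog Eif4g1 had opposite signs, but Eif4g1 was only at 0.15 without WT replicate 1 and lost its call with the GC trend removed.

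Among factors that assemble mTORC1, 1 of 4 tested genes was higher, namely Tti2, a subunit of the chaperone complex that matures mTOR (0.41, adjusted p = 0.00272, and 0.30 over 6 libraries). The partners of Tti2 in that complex, Tti1 (-0.13) and Telo2 (0.08), were not called. In mTORC2, 0 of 3 tested genes were called. Of the TSC complex and its target RHEB, 2 of 5 genes were higher and 0 lower. Rhebl1, a RHEB homolog, had a log2 fold change of 0.47 (adjusted p = 0.0334), and Tsc1, a subunit of the inhibitory TSC complex, of 0.15 (adjusted p = 0.0424). Over 6 libraries these values were 0.14 for Rhebl1 and 0.51 for Tsc1. Tsc2, the partner of Tsc1, was at -0.13 and not called, and at 0.10 over 6 libraries. The call of Tsc1 was lost with the GC trend removed (adjusted p = 0.0516). There 1 gene of the list was higher and 1 lower, the lower one being Tsc2 (-0.21, adjusted p = 0.00866).

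At the lysosome, where Rag GTPases recruit mTORC1 in response to amino acids, 3 of 13 genes were higher and 1 was lower. Flcn, encoding folliculin, which activates RagC and RagD, was higher in knockdown cells, at 51.9 ± 1.79 CPM, against 31.8 ± 0.854 CPM in WT cells (SD, n = 3 each). It had a log2 difference of 0.68 (SE 0.063, adjusted p = 3.8e-05) without WT replicate 1 and 0.71 over 6 libraries. Lamtor3, a Ragulator subunit, had 0.21 (adjusted p = 0.0198), but -0.07 over 6 libraries. Rraga, encoding RagA, had -0.22 (adjusted p = 0.0353), with -0.40 over 6 libraries, and lost its call with the GC trend removed (adjusted p = 0.0894).

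Of the GATOR complexes, KICSTOR and amino acid sensors upstream of the Rag GTPases, 4 of 16 were higher and 6 lower. Nprl3 (-0.49, adjusted p = 0.00606) and Depdc5 (-0.37, adjusted p = 0.00204), both subunits of the inhibitory complex GATOR1, were lower. Over 6 libraries Nprl3 was at -0.55, but Depdc5 was at -0.07 (SE 0.304) and its groups overlapped. Nprl2, the remaining GATOR1 subunit, was at 0.07 and not called. Wdr24, of the activating complex GATOR2, was higher (0.22, adjusted p = 0.0226), as was Sesn2, a leucine sensor that inhibits GATOR2 (0.46, adjusted p = 0.00206), with 0.39 for Wdr24 and 0.58 for Sesn2 over 6 libraries. Other GATOR2 subunits went the other way. Wdr59 (-0.22, adjusted p = 0.0429) and Seh1l (-0.18, adjusted p = 0.0139) were lower, and Mios (-0.27) and Sec13 (-0.11) were not called. Over 6 libraries Wdr59 was at 0.03 and Seh1l at -0.11. With the GC trend removed, 0 genes of this list were higher and 4 lower. The calls of Wdr24 (adjusted p = 0.287), Sesn2 (adjusted p = 0.0678), Wdr59 (adjusted p = 0.0551) and Seh1l (adjusted p = 0.509) were lost.

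Among upstream kinases and inhibitors, 4 of 15 genes were higher and 1 was lower. With the GC trend removed, 3 were higher and 3 lower. Trib3, a pseudokinase induced by stress that binds AKT, had 0.68 (adjusted p = 0.000124), but 0.38 over 6 libraries. Stk11, encoding the kinase LKB1 that activates AMPK, had 0.37 (adjusted p = 0.00177), with 0.43 over 6 libraries, and lost its call with the GC trend removed (adjusted p = 0.315).

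Among the S6 kinases, their substrates and repressors of TOP messenger RNAs, Rps6kb1 left out, 3 of 7 genes were higher and 0 lower, or 3 and 1 with the GC trend removed. Larp1, which represses TOP messenger RNAs when mTORC1 is inactive, was higher in knockdown cells, at 347.1 ± 6.63 CPM, against 260.5 ± 40.6 CPM in WT cells (SD, n = 3 each). Without WT replicate 1, its log2 fold change was 0.27 (adjusted p = 0.000903). Poldip3, which encodes the S6 kinase target SKAR, had 0.22 (adjusted p = 0.00557). Over 6 libraries Larp1 was at 0.41 and Poldip3 at 0.32.

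Of 30 other initiation factors, 10 were higher and 6 lower, or 10 and 3 with the GC trend removed. The subunits of the guanine nucleotide exchange factor eIF2B were split. Eif2b5, its catalytic subunit, was at 60.4 ± 1.49 CPM in knockdown and 125.8 ± 41.2 CPM in WT cells (SD, n = 3 each). Without WT replicate 1, its log2 difference was -0.77 (SE 0.053, adjusted p = 7e-06). Eif2b4 was at 0.65 (SE 0.0636, adjusted p = 5.1e-05). Over 6 libraries Eif2b5 was at -1.06 and Eif2b4 at 0.40. Eif5a, which helps ribosomes through difficult peptide bonds, had -0.34 (adjusted p = 0.00025), but -0.94 over 6 libraries. Eif6, which keeps the large ribosomal subunit from joining, had 0.46 (adjusted p = 0.00012), but -0.14 over 6 libraries.

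**Figure D5:**
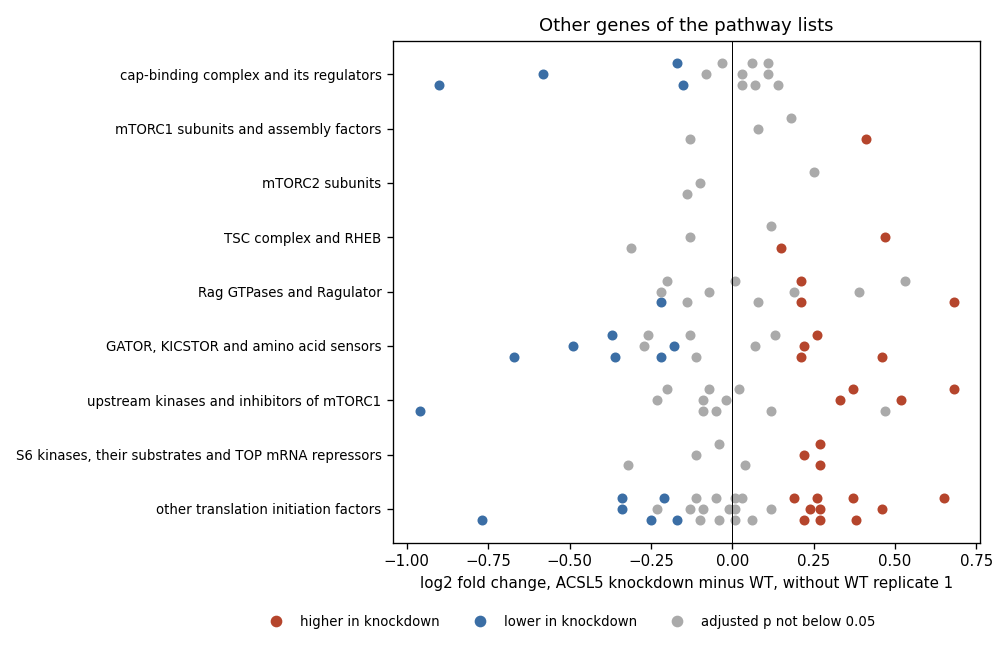
Log2 fold change without WT replicate 1, ACSL5 knockdown minus WT (horizontal axis), of the pathway genes besides the 10, with 1 point per gene and 1 row per list. Red points were called higher and blue points lower at an adjusted p below 0.05, and both occur on 4 of the 9 rows.

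The genes whose profile over the 6 libraries was closest to Eif4ebp2 were Il13ra1, Ugdh, Slc40a1, Cyb5b and Cnot7. Their root mean square difference from Eif4ebp2 in centred log2(TPM + 1) was 0.0828 for Il13ra1, 0.11 for Ugdh, 0.125 for Slc40a1, 0.142 for Cyb5b and 0.162 for Cnot7, against a median of 0.68 over the 8001 genes compared. Il13ra1, for example, was at 6.79, 7.12 and 6.82 TPM in knockdown, against 7.33, 17.1 and 18.0 TPM in WT libraries. As with Eif4ebp2, WT replicate 1 was near the knockdown libraries on that scale. In counts, the 5 had log2 fold changes of -0.99 to -1.38 over 6 libraries. Since they were picked for this profile in the same libraries, their lower level follows from the choice and is no separate result.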

How the data were processed

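Expected counts and TPM come from tables that the authors deposited, each with a gene length in bases. Per the submitters' processing notes, fastp, HISAT2, StringTie and DESeq2 were used, and the builds named are hg38 and GRCh38, although identifiers in the tables are from mouse. Sources used here do not give the quantifier or strandedness. Nothing says that replicates were separate cultures, so p-values measure the spread between libraries, which may be technical.

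The 10 genes and the pathway lists were chosen with earlier results of these data known. Expected counts were rounded and compared with the quasi-likelihood test of edgeR 4.0.16 (R 4.3.3, TMM, filterByExpr, robust, two-sided, Benjamini-Hochberg over all genes, called below 0.05). In simulated counts without WT replicate 1 (14843 genes), this test recovered 100 of 100 genes changed by 1 on the log2 scale. It recovered 41 of 100 changed by 0.5 and called 7 of 14643 unchanged ones. In simulated counts of 6 libraries (14484 genes), these values were 100 of 100, 62 of 100 and 7 of 14284. In the deposited counts of 6 libraries, it called 0 of 14679 genes. The simulated counts gave every gene the same dispersion and set no library apart, whereas WT replicate 1 stands apart in the deposited counts. The simulated recovery therefore does not tell what this test recovers in the deposited counts. The edgeR fit was also run without WT replicate 1, known from earlier results to stand apart. Alternatives were DESeq2 1.42.0 and its size factors, library totals, no filter, a filter of 1 CPM, limma-voom and limma-trend (3.58.1) on log2(TPM + 1) and log2(TPM + 0.1), no robust estimation, removal of each library's GC or length trend (lowess, span 0.3), a replicate block, and leaving out each library. From each list, up to 2 higher and 2 lower called genes with the smallest p and a mean of at least 5 TPM are named. Some other subunits of the same complexes are named beside them. The lengths behind TPM were worked out from the ratio of counts to TPM, scaled on genes with a single transcript and at least 100 counts. GC content was known for 96.3% of 15152 genes tested. Genes sharing at least 50 stretches of 50 bases, or overlapping one of the 10, were looked up in GENCODE M21 on GRCm38. Genes most like Eif4ebp2 were sought among those averaging at least 10 TPM. Some genes of the pathway lists are not reported here by name.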

Additional observations from a re-analysis of the deposited data

How the results depend on the processing

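Over 6 libraries, edgeR called 0 genes, 0 of the 10 genes and 0 of the other pathway genes. DESeq2 called 724, 2 and 3, and removal of the length trend gave 902, 1 and 8. Genes called in all came to 1 with library totals, 4 without a filter, 9 with limma-voom and 5 without robust estimation. Leaving out 1 library gave 0 to 5193 genes, 0 to 4 of the 10 and 0 to 45 pathway genes, the highest always without WT replicate 1. Without WT replicate 1, edgeR called 5193 genes, 4 of the 10 and 45 pathway genes. On log2(TPM + 1) these were 2464, 2 and 27, and on log2(TPM + 0.1) 2544, 2 and 27. Leaving out 1 further library gave 2599 to 6188 genes, 3 to 6 of the 10 and 24 to 49 pathway genes, with 2599 and 24 without WT replicate 3 and 3124 and 25 without WT replicate 2. Calls over these 5 libraries were 2471 higher and 2722 lower with TMM, 2864 and 2356 with library totals, and 1459 and 1005 on log2(TPM + 1). Over 6 libraries the median log2 fold change of all genes was -0.02, and 0.26 on log2(TPM + 1), a shift that TPM-based values carry. The cause of these changes was not tested.

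Signs turned as follows. Over 6 libraries, leaving out WT replicate 1 gave 0.34 for Eif4ebp1, -0.04 for Rptor, -0.07 for Deptor and -0.03 for Rps6kb1, both TPM scales gave 0.12 for Eif4a1 and 0.05 and 0.07 for Mtor, and the length trend gave -0.16 for Rps6kb1. Over 5 libraries, both TPM scales gave -0.23 for Eif4ebp1, 0.10 for Rptor and 0.03 for Rps6kb1. With the GC trend removed, Eif4a1 was at 0.01, Deptor at 0.05 and Rps6kb1 at 0.13. With the length trend removed, Rptor, Deptor and Rps6kb1 were at 0.03. Library totals gave 0.01 for Rps6kb1, and leaving out a knockdown library gave 0.00 for Rptor (replicate 3) and Rps6kb1 (replicate 2). Eif4ebp2 ranged from -0.91 to -1.49 and Akt1s1 from 0.95 to 2.02 over 6 libraries, and from -1.28 to -1.45 and 1.47 to 2.30 over 5. The call of Eif4g1 was lost in 6 of 17 settings over 5 libraries, and that of Mtor in 2 of 17. Acsl5 lay between -2.18 and -2.50. Leaving out 1 of 6 libraries spanned -0.75 to 0.34 for Eif4ebp1, -0.04 to 0.45 for Rptor, -0.07 to 0.39 for Deptor and -0.03 to 0.08 for Rps6kb1, and leaving out 1 of 5 spanned -0.09 to 0.00 for Rptor.

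Deviations of same-numbered libraries correlated at -0.132, 0.0419 and -0.194, and those of other-numbered libraries at -0.2 to 0.21. These few values cannot tell whether library numbers pair the samples. With the replicate block, 0 genes were called over 6 libraries, and 5753 genes, 6 of the 10 and 48 pathway genes over 5 libraries, where WT replicate 1 leaves only 2 shared numbers.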
